A study of Mus musculus with 8 samples.

Results

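The homing and chemokine receptors described here are 8 genes out of the 54232 gene IDs of the count table, taken by symbol from a fixed list. They are the lymph node homing receptor *Ccr7*, the sphingosine-1-phosphate receptors *S1pr1* and *S1pr5*, and the chemokine receptors *Cxcr3*, *Cxcr4*, *Cxcr6*, *Cx3cr1* and *Ccr2*. RNA-seq counts of FACS-purified splenic NK cells (3 libraries) and CD8+ T cells (3 libraries) were used, each library being a pool of 3 spleens. All mice were labelled *Tyk2* knockout (*Tyk2*-/-) on the C57BL/6 strain (C57BL/6N background by the methods), were 8 to 12 weeks old and were under homeostatic conditions, that is without treatment. Both cell types thus carry the same genotype label, and which of the listed *Tyk2*-/- strains, one of them with a CMV-cre transgene, gave these libraries is not given in the sources used here. Wild-type libraries were not used here, so each comparison is one between cell types within *Tyk2*-/- mice and no effect of TYK2 on a receptor was tested. The libraries of a cell type are called libraries 1 to 3, which are names without an order.

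Chemokine receptors are G protein-coupled receptors that steer leukocytes along gradients of chemokines. CCR7 guides naive lymphocytes into the T cell zones of lymph nodes and spleen, whereas CXCR3, CXCR6, CX3CR1 and CCR2 are typical of cells that enter inflamed or peripheral tissues, and CXCR4 holds cells in the bone marrow. The receptors for sphingosine-1-phosphate (S1P), a lipid that is abundant in blood and lymph, draw lymphocytes out of tissues, S1PR1 in T cells and S1PR5 in NK cells.

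Total counts on genes ranged from 20957384 to 26144478 for CD8+ T cells, and NK cell libraries were deeper with 32848432 to 38573550. Values are raw counts or normalised read counts, the latter scaled with edgeR's TMM factors to the mean library size. Up to 3 reads in a library were treated as below detection, a limit that covers counting error only. A gene was called when edgeR's quasi-likelihood test gave a Benjamini-Hochberg adjusted p below 0.05 over all genes tested and a log2 fold change of 1 or more in either direction. *Tyk2*, the targeted gene, had raw read counts of 105, 919 and 554 in CD8+ T cells, compared with 3864, 4245 and 3207 in NK cells, so that reads on the gene were present in each library labelled *Tyk2*-/-, and exons were not looked at separately. The cell types had the marker genes of their labels, with *Ncr1* lacking any read in CD8+ T cells while *Cd8b1* lacked any in NK cells. The summed normalised count of 4 B cell markers ranged from 940.6 to 6659 in CD8+ T cells, with *Ms4a1* at 405, 6 and 0 raw counts, and from 7.19 to 1521 in NK cells, with *Ms4a1* at 0, 2 and 0. Most of this sum was *Cd79b* (5739, 4725 and 940.6 normalised counts in CD8+ T cells), and *Pax5* was at 0 in CD8+ T cells. The 5 CD8+ T cell markers, which hold the T cell genes *Cd3d*, *Cd3e* and *Cd3g*, summed to 7935 to 13546 normalised counts in NK cells, against 227019 to 268059 in CD8+ T cells. Each library is labelled as a sample of its own, and whether the pools came from separate litters or days is not stated, so p-values measure the spread between these libraries. In such bulk RNA fewer cells that carry a transcript and less of it per cell cannot be told apart.

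The receptors divided the cell types into different sets. *Ccr7* and *Cxcr6* were higher in CD8+ T cells and *S1pr1*, *S1pr5* and *Ccr2* were higher in NK cells, whereas *Cxcr3* and *Cx3cr1* did not pass the test and *Cxcr4* was too low to be tested. Of the 7 receptors that passed the filter on low counts, 5 were called, against 11.1% of the 14062 genes tested. Of these, 3 were called in the direction of NK cells, against 6.10% of all genes, and 2 in that of CD8+ T cells, against 5.04%. *S1pr5* and *Ccr2* passed the filter through their NK cell libraries alone, so this count is a description of the set. For none of the 7 did the libraries of one cell type reach into the range of the other, and 41.6% of all genes tested behaved in this way.

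**Figure D1:**
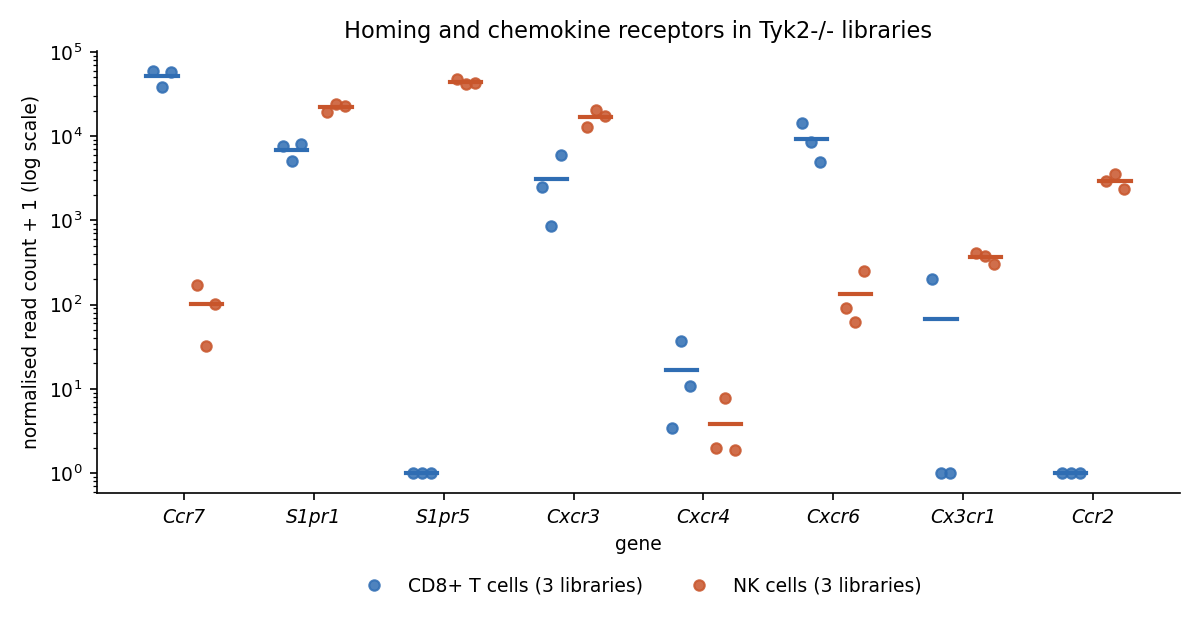
Normalised read count plus 1 (log axis) of the 8 receptor genes in each of the 3 CD8+ T cell libraries (blue) and 3 NK cell libraries (orange) from *Tyk2*-/- mice, with lines at the group means. *Ccr7* and *Cxcr6* sit higher in every CD8+ T cell library, *S1pr5* and *Ccr2* are at 0 in every CD8+ T cell library, and *Cxcr4* lies below 36 in all 6.

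*Ccr7*, the receptor for CCL19 and CCL21, showed the widest gap among the tested receptors with reads in both cell types. The gene (ENSMUSG00000037944) is on chromosome 11 (GRCm38, minus strand) from 99144196 to 99155077, with 3 exons that sum to 1978 bases. Normalised read counts reached 59662, 38053 and 57829 in the CD8+ T cell libraries, compared with 170.3, 31.0 and 101.6 in those of NK cells. The lowest CD8+ T cell library was far above the highest NK cell library. The means were 51848 ± 11982 (SD, n = 3) and 101.0 ± 69.7 (SD, n = 3), a ratio of 514 in favour of CD8+ T cells. The log2 fold change (NK against CD8+ T cells, as throughout) was -9.01 (SE 0.77, edgeR adjusted p = 0.0012), and it lay between -9.61 (without NK cell library 1) and -8.57 when single libraries were left out. B cells also express *Ccr7*, and their markers were highest in library 1 of the CD8+ T cells (6659 normalised counts) and lowest in library 3 (940.6), where *Ccr7* was nearly the same. Without CD8+ T cell library 1 the log2 fold change was -8.87 (edgeR adjusted p = 0.0054). The part of B cells in the value was not tested.

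*Cxcr6*, the receptor for CXCL16 that marks tissue-resident and effector lymphocytes, was the other receptor higher in CD8+ T cells. It (ENSMUSG00000048521) is found on the plus strand of chromosome 9 from 123806475 to 123811760. Normalised read counts were 14513, 8431 and 4930 in CD8+ T cells, compared with 90.5, 61.2 and 247.2 in NK cells. CD8+ T cell library 1 had the highest and library 3 the lowest value of its group, and each was well above the NK cell libraries. With means of 9292 ± 4849 (SD, n = 3) and 133.0 ± 100.0 (SD, n = 3), the ratio was 69.9 (log2 fold change -6.13, SE 0.77, edgeR adjusted p = 0.0055). With single libraries left out, the log2 fold change lay between -6.94 (without NK cell library 3) and -5.65 (without CD8+ T cell library 1). *Cxcr6* lies inside *Fyco1*, an autophagy gene on the opposite strand, but the exons of both share 0 bases. *Fyco1* had raw read counts of 1780, 511 and 1161 in CD8+ T cells, compared with 987, 763 and 442 in NK cells, and its log2 fold change of -0.98 was not called (edgeR adjusted p = 0.33).

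The S1P receptors went the other way. *S1pr1* (ENSMUSG00000045092), on the minus strand of chromosome 3 from 115710433 to 115715072, had 7616, 5069 and 8024 normalised counts in CD8+ T cells, compared with 19291, 24000 and 22614 in NK cells. Each library held many reads on this egress receptor, and the groups did not overlap. The means were 6903 ± 1602 (SD, n = 3) and 21968 ± 2420 (SD, n = 3), so that NK cells were 3.18-fold higher (log2 fold change 1.67, SE 0.23, edgeR adjusted p = 0.0074). This was the smallest difference among the 5 called receptors, and it was called in each of the 9 alternative fits, at adjusted p-values of up to 0.045.

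*S1pr5* had the highest level per exon length among the 8 receptors in NK cells and was not detectable in CD8+ T cells. The gene (ENSMUSG00000045087) lies on the minus strand of chromosome 9 from 21242912 to 21248443. No CD8+ T cell library held a read of it, whereas the NK cell libraries held 49106, 50163 and 48061. After normalisation the NK cell libraries were at 47783, 42018 and 43207, a mean of 44336 ± 3044 (SD, n = 3). With 3 counts set for each CD8+ T cell library, NK cells were at least 12973-fold higher (edgeR adjusted p = 0.00017). The exons of *S1pr5* share 51 bases with *Gm48303*, a transcript to be experimentally checked on the opposite strand, with raw read counts of 0, 0 and 0 in CD8+ T cells, compared with 726, 681 and 1099 in NK cells. Whether the authors counted by strand is not given in the sources used here, so reads in this stretch cannot be told apart.

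*Ccr2*, the receptor for CCL2 best known from inflammatory monocytes, followed the pattern of *S1pr5* at a lower level. It (ENSMUSG00000049103) lies on the plus strand of chromosome 9 from 124101950 to 124113557. No read fell on it in the CD8+ T cell libraries, and the NK cell libraries had raw read counts of 3034, 4242 and 2636. These are 2952, 3553 and 2370 normalised counts, or 2958 ± 591.8 on average (SD, n = 3). NK cells were at least 866-fold higher at 3 counts per CD8+ T cell library (edgeR adjusted p = 0.0012). Of 6 markers of macrophages and monocytes, 4 were above 3 counts in at least 1 NK cell library and 2 in all of them, and their summed normalised count ranged from 29839 to 54626 in NK cells and from 2112 to 5014 in CD8+ T cells. Most of this sum was *Ly6c2* (28980, 30341 and 54376 in NK cells). The defining marker *Adgre1*, which encodes F4/80, was at 0 in all 6 libraries, *C1qa* had at most 1 count, and *Csf1r* had 0, 22 and 0 counts in NK cells. *Cd68* had raw read counts of 1, 55 and 147 in CD8+ T cells, compared with 883, 633 and 235 in NK cells (edgeR adjusted p = 0.24), and *Lyz2* had 43 in NK cell library 3 and at most 1 in the others. The part of such cells in the reads on *Ccr2* was not tested.

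*Cxcr3* was high in NK cells, but it was not called, and the CD8+ T cell libraries were far apart. This receptor for the interferon-inducible chemokines CXCL9, CXCL10 and CXCL11 (ENSMUSG00000050232) lies on the minus strand of chromosome X from 101731535 to 101734269. Its normalised read count was 2519, 854.8 and 5928 in CD8+ T cells, compared with 12927, 20433 and 17392 in NK cells. CD8+ T cell library 3 was the highest of its group and library 2 the lowest, and all were below the NK cell libraries. The means of 3101 ± 2586 (SD, n = 3) and 16918 ± 3776 (SD, n = 3) gave a 5.46-fold higher value in NK cells (log2 fold change 2.45, SE 0.67, edgeR adjusted p = 0.063). It was called without CD8+ T cell library 2 (2.03, edgeR adjusted p = 0.041), without library 3 (3.34, edgeR adjusted p = 0.018) and with DESeq2 (2.51, adjusted p = 0.00049), which called 25.4% of all genes.

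*Cx3cr1*, the fractalkine receptor of monocytes and of mature cytotoxic lymphocytes, was low in both cell types. It (ENSMUSG00000052336) lies on the minus strand of chromosome 9 from 119901616 to 120069879. Raw counts were 164, 0 and 0 in CD8+ T cells, compared with 425, 452 and 339 in NK cells. The NK cell libraries resembled each other, and a single CD8+ T cell library held all reads of its group. On the normalised scale the means were 66.9 ± 115.8 (SD, n = 3) and 365.6 ± 55.5 (SD, n = 3), a log2 fold change of 2.45 with an SE of 2.37 (edgeR adjusted p = 0.53). Without CD8+ T cell library 1, where the group is at 0, the gene was called as higher in NK cells (edgeR adjusted p = 0.02). That library also had the highest B cell markers, whose part in the value was not tested. The span of *Cx3cr1* overlaps 9 annotated genes, of which only the antisense gene *Gm33858* shares exon bases (78) with it, with raw read counts of 0, 0 and 0 in CD8+ T cells, compared with 145, 0 and 0 in NK cells.

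*Cxcr4*, the receptor for CXCL12, was near the limit of detection. The gene (ENSMUSG00000045382) lies on the minus strand of chromosome 1 from 128588199 to 128592293. It had 2, 29 and 10 raw reads in CD8+ T cells, compared with 1, 8 and 1 in NK cells, so the groups overlapped. Its mean normalised count fell under the minimum of 10, and no fold is given. In the 4 alternative fits that did test it, it was not called (edgeR adjusted p of 0.27 to 0.61).

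**Figure D2:**
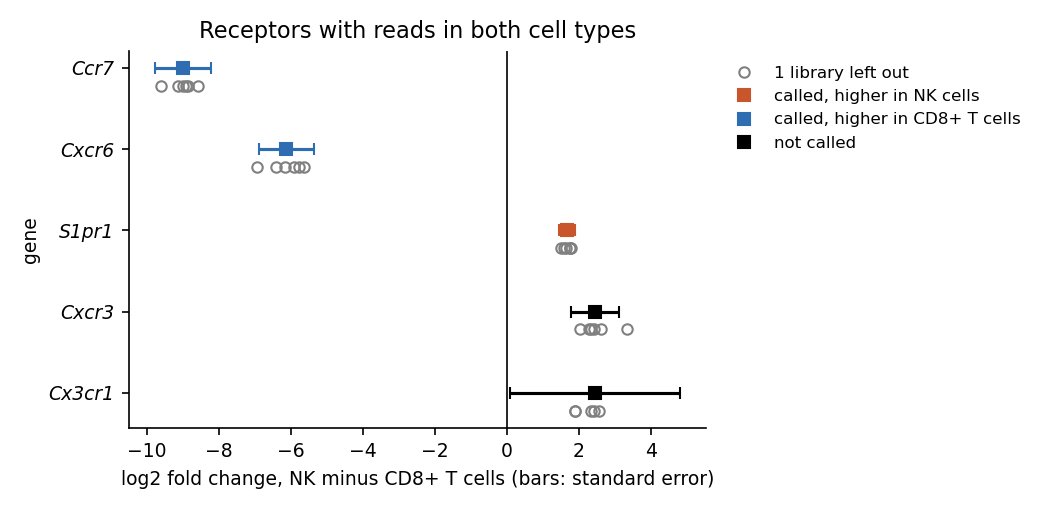
Log2 fold change (NK against CD8+ T cells) from edgeR (squares, bars are standard errors) for the 5 tested receptors with reads in both cell types, and the same value with each library left out in turn (grey circles). *Ccr7* (-9.01) and *Cxcr6* (-6.13) lie far to the CD8+ T cell side, the interval of *Cx3cr1* is the widest, and its fit without CD8+ T cell library 1 is not drawn since that group is then at 0.

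To compare the receptors with each other, levels were expressed as CPM (reads per 1000000 of the TMM-scaled library) per kilobase of exon. In CD8+ T cells *Ccr7* ranked first, with 906.8 ± 209.6 (SD, n = 3) on this scale, above 99.3% of the genes tested. Its lowest library (665.5) was above every library of the next receptor. *Cxcr6* (166.5 ± 86.9, SD, n = 3), *S1pr1* (78.4 ± 18.2, SD, n = 3) and *Cxcr3* (62.0 ± 51.7, SD, n = 3) followed, and as neighbours in this order they overlapped and did not differ beyond their spread. *Cx3cr1* at 0.514 and *Cxcr4* at 0.305 formed the low end together with *Ccr2* and *S1pr5* at 0.
In NK cells the order of these levels per kilobase was a different one. *S1pr5* led with 613.5 ± 42.1 (SD, n = 3), above 98.9% of the genes tested, and each of its libraries was above each library of *Cxcr3* (338.1 ± 75.5, SD, n = 3). *Cxcr3* overlapped with *S1pr1* (249.5 ± 27.5, SD, n = 3). *Ccr2* stood apart from both neighbours at 15.1 ± 3.03 (SD, n = 3). *Cx3cr1* (2.81), *Cxcr6* (2.38) and *Ccr7* (1.77) overlapped as neighbours, and *Cxcr4* was lowest at 0.0548. The orders held with the length of the longest transcript, under which *Ccr2* in NK cells was at 17.9. *S1pr1* held the third place in both cell types, with a level of 78.4 in CD8+ T cells against 249.5 in NK cells. When single libraries were left out the first 4 places stayed the same, while *Cx3cr1* fell behind *Cxcr4* in CD8+ T cells without library 1 and the order among *Cx3cr1*, *Cxcr6* and *Ccr7* in NK cells moved. Levels also moved with single libraries for *Cxcr3* in CD8+ T cells without library 3 (33.7), *Cxcr6* without NK cell library 3 (1.36), *Ccr7* without NK cell library 1 (1.16) and *Cxcr4*, at 0.116 without CD8+ T cell library 2 and 0.0179 without NK cell library 2. *Cx3cr1* in CD8+ T cells was at 0 without library 1 and at 0.770 without library 2 or 3.

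**Figure D3:**
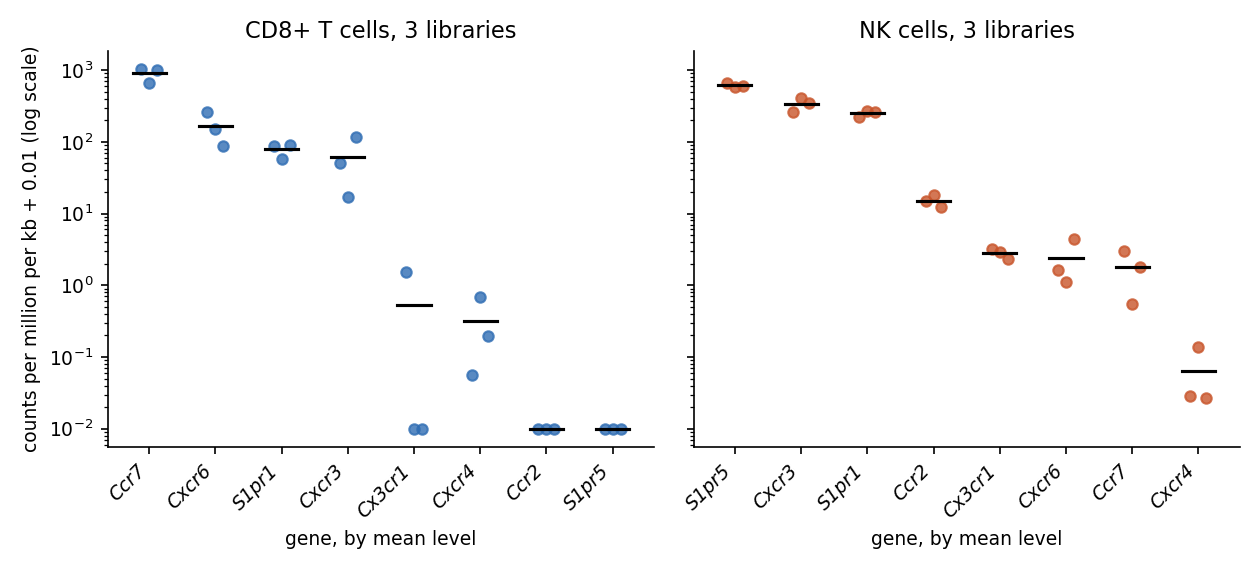
CPM per kilobase of exon plus 0.01 (log axis) of the 8 receptors in the 3 CD8+ T cell libraries (left) and 3 NK cell libraries (right), ordered by the mean (black line). *Ccr7* is first in CD8+ T cells at a mean of 906.8 and next to last in NK cells at 1.77, while *S1pr5* is first in NK cells at 613.5 and at 0 in CD8+ T cells.

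Of the 8 receptors, 4 lie on chromosome 9, and *Cxcr6* and *Ccr2* belong to a chemokine receptor cluster, in which the stretch from *Ccr9* to *Ccr2* covers 435.1 kb. This stretch was looked at after the values of these genes had been seen. Of 10 protein-coding genes that lie in this stretch or reach into it, *Slc6a20a*, at 0 counts in all 6 libraries, lies mostly before *Ccr9*. *Ccr9* and *Cxcr6*, with 22.1 kb between them, were higher in CD8+ T cells. *Ccr2*, which lies 290.2 kb from *Cxcr6*, was detected in NK cells only. *Ccr9*, the gut homing receptor for CCL25, had 6374, 5379 and 1900 normalised counts in CD8+ T cells, compared with 64.2, 97.2 and 10.8 in NK cells (log2 fold change -6.31, SE 0.99, edgeR adjusted p = 0.012). It was not called without NK cell library 1 (edgeR adjusted p = 0.072), and the log2 fold change was -6.92 without NK cell library 2. Reads that aligned to several places had been left out by the authors, so the counts of chemokine receptor genes with similar sequences may be too low. Between *Cxcr6* and *Ccr2*, *Ccr1*, *Ccr1l1* and *Ccr3* had 0 counts in all 6 libraries and *Xcr1* had at most 12.

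**Figure D4:**
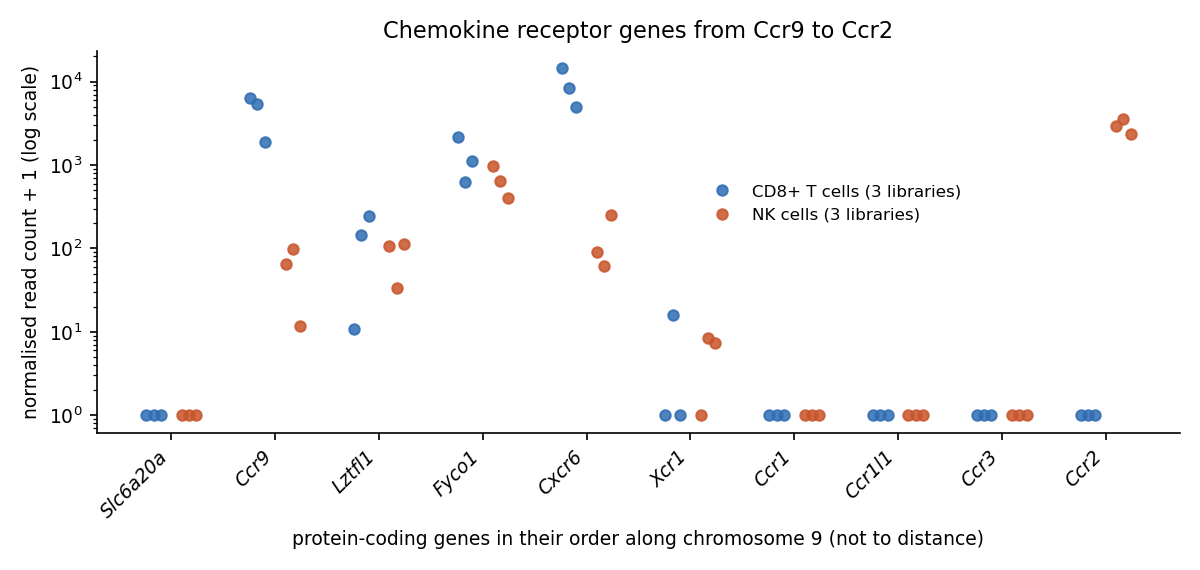
Normalised read count plus 1 (log axis) of the 10 protein-coding genes that lie in or reach into the stretch from *Ccr9* to *Ccr2*. Genes are in their order along chromosome 9 (distances not to scale), in 3 CD8+ T cell (blue) and 3 NK cell (orange) libraries. *Ccr9* and *Cxcr6* are higher in CD8+ T cells, and *Ccr2* has reads in NK cells only.

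The sequences before the start sites were read from RefSeq promoters of GRCm38.p6, which held 6 of the 8 receptors (not *Ccr7* and *S1pr1*). The 250 bases before the start are printed for the 4 receptors on chromosome 9, since *S1pr5*, *Ccr2* and *Cxcr6* were called with large differences and *Cx3cr1* was not called. They run 5′ to 3′ on the strand of the gene, and the RefSeq start can lie inside the outer end of the gene given above. Capitals mark the letters CCACCC on either strand, the core that KLF factors such as KLF2, an activator of *S1pr1* in T cells, can bind.
S1pr5 (minus strand, chr9:21248444-21248693): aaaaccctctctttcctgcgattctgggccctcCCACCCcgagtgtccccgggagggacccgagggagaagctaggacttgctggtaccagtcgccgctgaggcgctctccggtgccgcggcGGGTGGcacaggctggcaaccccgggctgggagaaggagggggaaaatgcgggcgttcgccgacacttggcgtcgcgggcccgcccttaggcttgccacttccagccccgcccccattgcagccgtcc
Ccr2 (plus strand, chr9:124101933-124102182): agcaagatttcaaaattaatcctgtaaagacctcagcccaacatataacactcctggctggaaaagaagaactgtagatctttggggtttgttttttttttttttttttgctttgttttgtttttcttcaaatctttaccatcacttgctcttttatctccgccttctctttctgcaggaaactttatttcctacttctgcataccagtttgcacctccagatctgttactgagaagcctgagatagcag
Cxcr6 (plus strand, chr9:123806227-123806476): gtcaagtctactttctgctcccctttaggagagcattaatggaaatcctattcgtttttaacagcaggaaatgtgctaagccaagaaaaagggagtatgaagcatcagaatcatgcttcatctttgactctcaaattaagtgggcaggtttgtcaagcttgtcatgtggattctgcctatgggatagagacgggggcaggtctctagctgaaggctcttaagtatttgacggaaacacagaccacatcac
Cx3cr1 (minus strand, chr9:120068297-120068546): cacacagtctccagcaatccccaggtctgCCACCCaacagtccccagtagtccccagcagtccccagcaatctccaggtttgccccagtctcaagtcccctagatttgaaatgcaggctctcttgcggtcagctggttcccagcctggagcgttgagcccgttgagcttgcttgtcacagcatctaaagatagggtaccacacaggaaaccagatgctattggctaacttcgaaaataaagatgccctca
The *S1pr5* stretch had a GC content of 69.2% with 22 CpG, above the 37.2% with 1 CpG of *Ccr2* and the 43.6% with 3 CpG of *Cxcr6*. *Cx3cr1* was at 53.6% with 4 CpG. Of the receptors not printed, *Cxcr4* was at 61.2% with 19 CpG and *Cxcr3* at 48% with 3 CpG. The median over all 32851 promoters was 52.4% with 6 CpG. In the window of 300 bases, which includes 50 bases after the start, CCACCC occurred at bases 217 to 212 and, on the opposite strand, 128 to 123 before the start of *S1pr5*, and at bases 221 to 216 before that of *Cx3cr1*. It was found in 2 of the 6 receptor promoters and in 31.5% of all promoters. The T-box core AGGTGTGA, the ISRE-type motif with 2 bases between GAAA and GAAA and the GAS-type motif TTCNNNGAA were searched on both strands as well. None of these occurred in the 6 windows, and they were found in 1.28%, 3.44% and 8.30% of all promoters. The motifs do not overlap in these windows.

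The other chemokine receptors had mostly few or no reads. Of 12 further chemokine receptors, 8 had 3 counts or fewer in every library and 2 were tested, of which *Ccr9* (higher in CD8+ T cells) was called, against 11.1% of all genes tested (5.04% in this direction). *Cxcr5*, the B cell follicle receptor, had raw read counts of 4, 521 and 0 in CD8+ T cells, compared with 0, 77 and 0 in NK cells (edgeR adjusted p = 0.54). Of 5 atypical receptors, which bind chemokines without G protein signalling, *Ccrl2* alone was tested. It had no read in CD8+ T cells but 280, 375 and 535 in NK cells, at least 104-fold more (edgeR adjusted p = 0.024), and it was not called when any NK cell library was left out. *Ccrl2* passed the filter on low counts through its NK cell libraries alone, so its call is a description. Of all genes tested, 6.10% were called in this direction.
Among 6 further lipid receptors of lymphocytes, 5 were tested and 0 were called by edgeR, against 11.1% of all genes tested. Of the 5, 3 had an unadjusted edgeR p under 0.05 (30.7% of all genes tested did) and 3 were called by DESeq2 (25.4% of all genes). Most abundant was *S1pr4*, with 7719, 3940 and 6776 normalised counts in CD8+ T cells, compared with 12777, 13627 and 10522 in NK cells. The groups did not overlap, and its log2 fold change was 1.00 (SE 0.29, edgeR adjusted p = 0.068). *Gpr183*, the oxysterol receptor EBI2 (-2.26, SE 0.79, edgeR adjusted p = 0.11), and *Lpar6* (-2.22, SE 0.62, edgeR adjusted p = 0.066) did not pass the test, and the libraries of the cell types overlapped for *Gpr183* but not for *Lpar6*. Of these, *Gpr183* was called without CD8+ T cell library 3 (-2.73, edgeR adjusted p = 0.021) and *Lpar6* without library 2 (-2.59, edgeR adjusted p = 0.018). The S1P receptor *S1pr2* had raw read counts of 0, 4 and 748 in CD8+ T cells, compared with 653, 632 and 468 in NK cells, and *Lpar2* had 1, 0 and 43 and 184, 175 and 286, so that CD8+ T cell library 3 held nearly all reads of its group for both. Without this library both were called as higher in NK cells (edgeR adjusted p = 0.041 and 0.044). Of 12 chemokine ligands of the chemokine receptors described here, 10 had at most 3 counts in every library. *Cxcl10*, with reads in 1 library of each cell type, was the only one tested (edgeR adjusted p = 0.65). Of 6 genes for S1P synthesis, export and breakdown, *Sphk1* and *Spns2* were at 0 in all libraries, and of the 3 tested 0 were called by edgeR, 0 had an unadjusted p under 0.05 and 0 were called by DESeq2 (11.1%, 30.7% and 25.4% of all genes), which for so few genes is no result about them. The highest of them in NK cells was *Sgpl1*, the S1P lyase, with 908.5 ± 314.8 (SD, n = 3) normalised counts in CD8+ T cells and 1325 ± 257.5 (SD, n = 3) in NK cells.

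Among genes that set the surface level or signal of these receptors, *Cd69* had the lowest adjusted p. Of 14 regulators, 13 were tested, 8 were not called and 5 were called, 4 of them higher in CD8+ T cells, the other one in NK cells, against 11.1% of all genes called (5.04% in the direction of CD8+ T cells and 6.10% in that of NK cells). Their median log2 fold change was 0.21, against 0.10 for all genes tested. *Cd69*, whose product binds S1PR1 and takes it off the surface, had 9719, 19202 and 5857 normalised counts in CD8+ T cells, compared with 357.1, 451.5 and 515.1 in NK cells. The groups did not overlap and NK cells were lower (log2 fold change -4.72, SE 0.51, edgeR adjusted p = 0.0032). *Rgs10* (-3.46, SE 0.59, edgeR adjusted p = 0.016) and *Rgs19* (-1.28, SE 0.27, edgeR adjusted p = 0.032), which shorten G protein signals, were also lower in NK cells, as was *Foxo1* (-1.85, SE 0.40, edgeR adjusted p = 0.036), an activator of *Ccr7* and *Klf2*. *Zeb2*, a factor of NK cell maturation, had raw read counts of 13, 0 and 0 in CD8+ T cells, compared with 1259, 1699 and 1627 in NK cells (edgeR adjusted p = 0.044). It passed the filter on low counts through its NK cell libraries alone, so the count of called regulators is a description of the set. *Klf2* had 3728, 8347 and 4723 normalised counts in CD8+ T cells, compared with 12992, 11802 and 12611 in NK cells, and was not called (log2 fold change 1.16, SE 0.32, edgeR adjusted p = 0.064). With DESeq2, which called 25.4% of all genes, *Klf2* was called (1.22, DESeq2 adjusted p = 0.0055). *Cd69* was called in all 9 alternative fits, at a log2 fold change of -4.12 without CD8+ T cell library 2. When single libraries were left out, *Foxo1* was called only without CD8+ T cell library 3 (edgeR adjusted p of 0.059 to 0.15 in the other fits) and *Rgs19* only without CD8+ T cell library 2 (0.052 to 0.14). *Zeb2* kept the call without CD8+ T cell library 1, where that group is at 0 (edgeR adjusted p = 0.0041), but lost it without CD8+ T cell library 2 or any NK cell library (0.053 to 0.15), *Rgs10* lost it without NK cell library 1 (0.091) and was at -4.12 without NK cell library 3, and *Klf2* gained one without CD8+ T cell library 2 (1.59, edgeR adjusted p = 0.0079).
Downstream of the receptors, 17 genes for G proteins and motility were tested and 7 were called, against 11.1% of all genes, with a median log2 fold change of 0.32. Higher in NK cells were *Gnai2* (1.89, SE 0.39, edgeR adjusted p = 0.031), the inhibitory alpha subunit through which chemokine receptors signal, *Gng2* (3.44, edgeR adjusted p = 0.043), *Rac2* (1.15, edgeR adjusted p = 0.0061) and *Rapgef1* (1.87, edgeR adjusted p = 0.0083). Higher in CD8+ T cells were *Rassf5* (-3.03, SE 0.37, edgeR adjusted p = 0.005), which links Rap1 to integrin activation, *Rap1b* (-1.45, edgeR adjusted p = 0.019) and *Gnb1* (-1.23, edgeR adjusted p = 0.026). *Rac2* and *Rassf5* kept the call in all 9 alternative fits. Without any one of the NK cell libraries, *Gnai2*, *Gng2*, *Gnb1* and *Rap1b* lost it (edgeR adjusted p of 0.083 to 0.13). The log2 fold change of *Gng2* was 4.66 without CD8+ T cell library 2. *Gnai2* (0.054) and *Gng2* (0.087) also lost the call without CD8+ T cell library 3, and *Rapgef1* without NK cell library 1 (0.057).

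**Figure D5:**
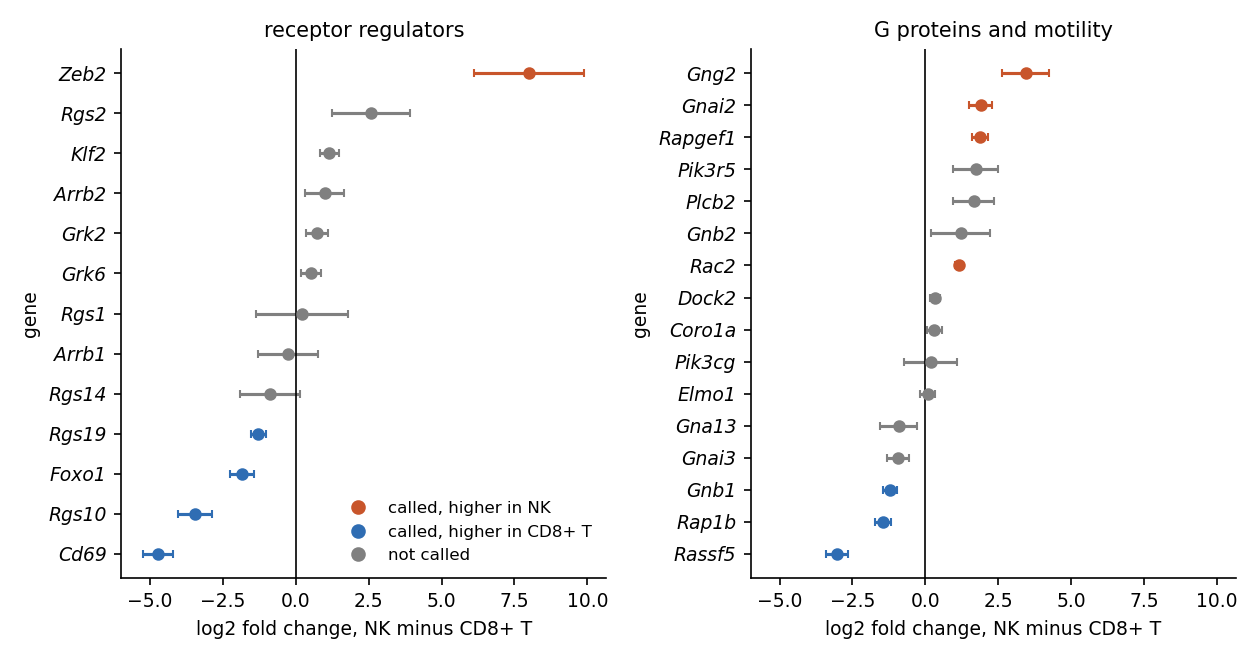
Log2 fold change (NK against CD8+ T cells) with its standard error (edgeR, 3 libraries per cell type) for the tested regulators of the receptors (left) and genes for G proteins and motility (right), coloured by call. *Cd69* (-4.72) and *Zeb2* (8.00) mark the ends among the regulators, and *Gnaq* is not drawn since it has 0 counts in CD8+ T cells. The size of the *Zeb2* value (SE 1.89) rests on 13 raw reads in CD8+ T cell library 1, the only one of its group with reads.

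For each tested receptor, the gene with the most similar profile was sought by Pearson's r of log2(CPM + 1) over the 6 libraries. Here CPM was taken per 1000000 of the total count of a library, without TMM scaling. These were *Crlf3* for *Ccr7* (r = 0.998), *Hsdl1* for *Cxcr6* (r = 0.9996), *Prr13* for *S1pr1* (r = 0.998), *Klrc3* for *S1pr5* (r = 0.99999), *B230118H07Rik* for *Ccr2* (r = 0.99996), *Snx17* for *Cxcr3* (r = 0.998) and *Pdgfb* for *Cx3cr1* (r = 0.998). The libraries fall into the cell types, so between 103 (*Cxcr3*) and 839 (*S1pr5*) genes reached an r above 0.95 with a receptor. *Klrc3*, an NKG2 receptor gene, had no read in CD8+ T cells but 576, 634 and 629 in NK cells. *Pdgfb*, like *Cx3cr1*, had nearly all its CD8+ T cell reads in library 1, with raw read counts of 704, 8 and 3 in CD8+ T cells, compared with 2407, 1916 and 1859 in NK cells.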

How the data were processed

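RNA-seq of splenic *Tyk2*-/- NK and CD8+ T cells was used. For the deposited raw counts per gene, the authors used Trimmomatic 0.32 for trimming and STAR 2.7.1 for alignment to mm10, and counted uniquely aligned reads in exons with summarizeOverlaps on a GENCODE Basic annotation of GRCm38. The libraries were amplified after reverse transcription, and no molecular identifiers were used here. From the 104 columns of the table, 6 entered the analysis and the other 98 were not used here. For *WT* homeostatic CD8+ T cells 3 columns stand against 2 samples, so the planned comparison with *WT* cells was not run.

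Of 54232 gene IDs, 54079 matched the GENCODE annotation of GRCm38. Counts were analysed with edgeR 4.0.16 in R 4.3.3 (TMM factors, mean normalised count of at least 10, robust quasi-likelihood test, Benjamini-Hochberg adjustment over 14062 genes). A gene was called at an adjusted p below 0.05 and a log2 fold change of 1 or more in either direction. Standard errors were derived from the fold change and its F value. The common biological coefficient of variation, estimated in each cell type alone, was 1.4 for CD8+ T and 0.847 for NK cells. Folds against a group at 0 were computed with 3 counts per library. The alternatives were RLE normalisation, DESeq2 1.42.0, no filter, leaving out each library, and the longest transcript as the length. The fitting code was run on simulated counts, which is a check of the code and not of the results given here. Python 3.11.15 and pandas 2.3.3 were used for the tables.

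The 8 receptors and the lists were chosen with earlier results of these data known. A gene of the further chemokine receptors and one of the B cell markers are not reported here, and counts and sums over these lists leave them out. The genes named are these receptors, *Tyk2*, members of each list that were called (the most abundant where none was), the most similar gene of each receptor, genes overlapping a receptor and the marker genes. Other genes are named where they show reads in single libraries or nearly passed the test, and were chosen after their values were seen.

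Marker lists gave these summed normalised counts. The 5 NK cell markers ranged from 735.8 to 2197 in CD8+ T cells, compared with 212131 to 251929 in NK cells. The ranges were 0 to 438.4 and 254.6 to 752.2 for dendritic cells (5 genes), 3.87 to 116.2 and 16.2 to 36.0 for CD4 T cells (3 genes), 1.94 to 42.8 and 3.60 to 53.6 for erythroid cells (4 genes), and 0 to 3.68 and 20.9 to 47.6 for neutrophils (4 genes). Their part in the receptor results was not tested.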

Additional observations from a re-analysis of the deposited data

How the results depend on the processing

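The 5 called receptors (*Ccr7*, *Cxcr6*, *S1pr1*, *S1pr5* and *Ccr2*) kept their direction and call in all 45 values from the 9 alternative fits, and leaving out single libraries gave 3 to 4 receptors for NK cells and 2 for CD8+ T cells. The fits reuse the same 6 libraries, so these values are not independent checks. *S1pr5* and *Ccr2* had 0 counts in CD8+ T cells, so their direction could not change. None of the 7 tested receptors changed direction in these fits. Since their libraries did not overlap between the cell types, leaving out a library could hardly reverse a direction, and this is a description only. Moving from TMM to RLE shifted the fold change of all genes by 0.059 (median, log2). Over all genes, DESeq2 found 2027 genes (NK) and 1510 genes (CD8+ T) with higher values, against 858 and 709 with edgeR, and fits without a library gave 235 to 1170 and 240 to 724, and the 3 lowest of each occurred when an NK cell library was missing. The cause was not tested.

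DESeq2 called 25.4% of the genes it tested, against 11.1% with edgeR, and this share stands beside each DESeq2 count given next. Among further lipid receptors DESeq2 called 1 for NK cells and 2 for CD8+ T cells, and the fits without a library gave 0 to 2 and 0 to 1. For the receptor regulators DESeq2 gave 2 higher in NK cells, and the fits without a library gave 0 to 2 in NK cells and 1 to 3 in CD8+ T cells. For G proteins and motility DESeq2 gave 6 higher in NK cells and 3 in CD8+ T cells, and the fits without a library gave 1 to 5 and 1 to 3. The latter fits gave 0 to 1 for other chemokine receptors higher in CD8+ T cells and 0 to 1 for atypical receptors higher in NK cells. No paired analysis was possible because the labels give the NK and CD8+ T cell samples compared here no number in common.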

Other observations

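Reads on some migration genes were confined to single libraries of a cell type. *Cxcl10*, an interferon-inducible ligand of CXCR3, had 606, 0 and 0 raw reads in CD8+ T cells, compared with 118, 0 and 0 in NK cells. *Ccr10*, a skin homing receptor, had 0 in 5 libraries and 39 in NK cell library 3. These genes were picked after their values were seen, and the source of the reads was not tested.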
